A study of Mus musculus with 12 samples.

Results

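The genes described here are the NFAT transcription factors and a small set of calcium signalling genes in mouse hair follicle stem cells that had lost Foxc1, a forkhead transcription factor. There were 10 of them, taken by name among the 37931 gene names that both deposited count tables share: the factors Nfatc1, Nfatc2, Nfatc3, Nfatc4 and Nfat5, the calcineurin regulator Rcan1, the kinases Camk4 and Camk2d, and the calcium pumps Atp2a2 and Atp2a3. They were named with results of these same libraries known. Their levels and fold changes are therefore given as a description, with no test of their own.

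Knockout (KO) mice carried K14-H2BGFP, K14Cre and Foxc1 fl/fl, so Cre acted wherever the keratin 14 promoter was active, which includes the basal epidermis as well as the follicle. Wild-type (WT) controls carried K14-H2BGFP and Foxc1 fl/fl without Cre, so the fluorescent histone and the floxed alleles were common to all groups. Cells of back skin were sorted as positive for H2BGFP, CD34 and CD49f and negative for Sca-1, and oligo(dT)-selected RNA was sequenced. Anagen, the growth phase of the hair cycle, was represented by 2 KO libraries (days 29 and 31, both female) and 3 WT libraries (day 29 female, days 30 and 31 male). Early telogen, the start of the resting phase, was represented by 4 KO libraries, numbered 1, 2, 3 and 5, and by 3 WT libraries, numbered 1, 3 and 4, with 1 male library in each genotype. The early telogen libraries were labelled with an age of 47 days, and KO replicate 5 was titled day 43. The anagen WT library titled day 31 carried an age label of 43 days. The labels do not say that libraries came from separate animals, so p-values measure the spread between libraries only.

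Calcium entering the cytoplasm binds calmodulin, which switches on the phosphatase calcineurin and the calcium/calmodulin-dependent kinases. Calcineurin strips phosphates from NFATc1 to NFATc4 and lets them enter the nucleus, while NFAT5 answers to osmotic stress and does not need calcineurin. In the hair follicle NFATc1 marks bulge stem cells and is known to hold them quiescent, in part by repressing Cdk4.

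Levels are given as CPM, each gene's count scaled by the library's total over gene rows to a common total of 1000000. Anagen libraries held 29025553 to 54482469 counts over gene rows, and early telogen libraries 2662083 to 11821916, the lowest being KO replicate 5. Foxc1 was at 0.206 and 0.276 CPM in the anagen KO libraries, against 34.6, 115.9 and 47.1 CPM in the anagen WT libraries. In early telogen it was at 2.28, 3.11, 0.910 and 1.13 CPM in KO and at 43.8, 59.1 and 61.2 CPM in WT, so each library carried the Foxc1 level of its label. Among KO libraries Foxc1 was higher in early telogen than in anagen, with a log2 fold change of 2.91 ± 0.85 (SE). The part of this remaining Foxc1 in the stage differences of the 10 genes was not tested. All 10 markers of follicle stem cells were detected in every library, with a summed level of 21743 to 35777 CPM. The sum hides single markers. Krt15 was at 1254 and 2192 CPM in anagen KO, against 4641 to 9289 CPM in anagen WT. Cd34 was at 277 and 230 CPM in anagen KO, against 352 to 757 CPM in anagen WT. Lhx2 and Fgf18 also lay below WT in anagen, and the other markers overlapped. In early telogen Cd34 was at 349 to 417 CPM in KO, against 647 to 845 CPM in WT, and the others overlapped. The part of these markers in the values of the 10 genes was not tested. Markers of immune cells (11 genes) summed to 39.7 to 161.8 CPM in anagen KO, against 19.7 to 102.5 CPM in anagen WT, and to 56.7 to 205.4 CPM in early telogen KO, against 13.4 to 93.0 CPM in early telogen WT. Stage coincided with table and depth, so differences between stages cannot be told apart from differences between the sets of libraries. In sorted bulk RNA, fewer cells expressing a gene and less RNA per cell cannot be told apart.

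Sequence upstream of the start site is shown for Rcan1, whose downstream start is known to answer to NFAT, and for Atp2a3, which had the lowest per-length level of the 10 genes in anagen KO. RefSeq windows of the 250 bases before a start (GRCm38.p6) were at hand for 7 of the 10 genes, 10 windows in all. Capitals mark the letters GGAAA, the core of NFAT sites, and TAAACA, a core of forkhead sites, on either strand (TTTCC and TGTTTA read on the printed strand). The Rcan1 windows lie at chr16:92400079-92400328 for the downstream start and at chr16:92466170-92466419 for the upstream start, both on the minus strand. The Atp2a3 window lies at chr11:72960919-72961168 on the plus strand.
Rcan1 downstream start: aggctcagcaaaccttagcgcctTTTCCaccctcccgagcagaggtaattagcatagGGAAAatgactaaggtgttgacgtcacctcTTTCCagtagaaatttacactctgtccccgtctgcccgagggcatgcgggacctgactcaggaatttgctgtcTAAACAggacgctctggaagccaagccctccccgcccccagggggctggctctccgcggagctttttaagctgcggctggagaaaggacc
Rcan1 upstream start: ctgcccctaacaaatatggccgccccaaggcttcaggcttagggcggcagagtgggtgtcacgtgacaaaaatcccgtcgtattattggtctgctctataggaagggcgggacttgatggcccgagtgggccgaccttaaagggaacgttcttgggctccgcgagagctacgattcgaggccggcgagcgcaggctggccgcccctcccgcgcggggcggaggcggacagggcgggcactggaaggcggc
Atp2a3: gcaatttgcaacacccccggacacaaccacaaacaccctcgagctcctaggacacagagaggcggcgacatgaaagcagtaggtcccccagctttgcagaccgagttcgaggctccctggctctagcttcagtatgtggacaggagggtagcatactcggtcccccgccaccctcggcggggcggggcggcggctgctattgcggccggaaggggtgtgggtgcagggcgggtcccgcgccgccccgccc
The downstream Rcan1 window held 3 matches to GGAAA and 1 to TAAACA, while the upstream Rcan1 window and the Atp2a3 window held 0 of either. Of 32851 windows of this length over 27025 genes, 55.57% held GGAAA, 6.392% held 3 or more, and 12.03% held TAAACA. A match is a description of the letters and not a binding site. The counts are per gene, so they do not divide Rcan1 reads between its starts.

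Nfatc1 (ENSMUSG00000033016.16, chromosome 18, 80606205 to 80713071, minus strand, GRCm38), the family member tied to bulge stem cells, was lower in KO than in WT libraries in anagen and overlapped with WT in early telogen. It was at 99.3 and 60.0 CPM in anagen KO, against 159.9, 187.9 and 234.3 CPM in anagen WT. Early telogen values were 351.1, 354.4, 315.4 and 398.6 CPM in KO, against 282.0, 376.2 and 439.7 CPM in WT. The anagen KO libraries held the lowest values of all 12, and the groups overlapped in early telogen. The mean in anagen KO was 79.6 ± 27.8 CPM (SD, n = 2), which is 41.1% of the anagen WT mean of 194.0 ± 37.6 CPM (n = 3). The log2 fold change of KO over WT was -1.37 ± 0.30 (SE) in anagen and -0.22 ± 0.21 in early telogen.

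Nfat5 (ENSMUSG00000003847.16, chromosome 8, 107293470 to 107379517, plus strand), the osmotic member, was high in every library and did not separate the genotypes. It was at 487.7 and 359.1 CPM in anagen KO, against 494.0, 316.4 and 422.7 CPM in anagen WT. Early telogen levels were 996.5, 753.2, 1235 and 817.0 CPM in KO, against 1098, 1178 and 1072 CPM in WT. Every early telogen library exceeded every anagen library, in either genotype. The log2 fold change of KO over WT was -0.04 ± 0.27 in anagen and -0.38 ± 0.25 in early telogen.

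Nfatc3 (ENSMUSG00000031902.10, chromosome 8, 106058840 to 106130537, plus strand), a calcineurin-dependent member known from many tissues, was at 41.8 and 29.5 CPM in anagen KO, against 39.5, 30.4 and 31.2 CPM in anagen WT. In early telogen it was at 46.4, 61.2, 40.3 and 43.6 CPM in KO, against 32.3, 26.9 and 34.7 CPM in WT. It was the 1 gene of the 10 whose early telogen KO libraries all lay above WT, with a log2 fold change of 0.43 ± 0.17 that did not pass the test. Its exons overlap those of Esrp2 on the other strand, which was at 60.0 to 162.6 CPM over the 12 libraries, and the strand option of the counting is not given in the sources used here.

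Nfatc2 and Nfatc4 were scarce. Nfatc2 (ENSMUSG00000027544.16, chromosome 2, 168476410 to 168601657, minus strand), best known from T cells, was at 0.874 and 2.20 CPM in anagen KO, against 1.25, 1.85 and 2.81 CPM in anagen WT, and at 3.30, 6.40, 2.02 and 1.13 CPM in early telogen KO, against 4.20, 0.278 and 0.979 CPM in early telogen WT. The lowest early telogen values rest on 3 counts in KO replicate 5 and 3 counts in WT replicate 3, and no group separated. Nfatc4 (ENSMUSG00000023411.12, chromosome 14, 55823144 to 55833943, plus strand) was at 1.93 and 1.76 CPM in anagen KO, against 3.18, 2.90 and 2.97 CPM in anagen WT. In early telogen Nfatc4 was at 17.9, 13.2, 5.46 and 14.3 CPM in KO, against 8.30, 6.67 and 4.24 CPM in WT. Its anagen KO libraries lay below WT, its early telogen groups overlapped through KO replicate 3, and its log2 fold changes of KO over WT were -0.80 ± 0.36 in anagen and 0.79 ± 0.39 in early telogen.

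Set against each other per length, as CPM per kilobase of annotated exon, Nfat5 and Nfatc1 made up most of the family signal in every group. Nfatc1 supplied 28.3 ± 2.89% of the summed per-length level of the 5 factors in anagen KO (n = 2), against 50.1 ± 7.97% in anagen WT (n = 3). In early telogen the Nfatc1 share was 45.2 ± 6.39% in KO (n = 4), against 42.8 ± 5.84% in WT (n = 3). The Nfat5 share was 62.2 ± 2.32% in anagen KO, against 43.0 ± 7.36% in anagen WT, and 48.5 ± 7.77% in early telogen KO, against 53.7 ± 5.19% in early telogen WT. In anagen KO the highest Nfatc1 share was 30.3% and in anagen WT the lowest was 40.9%, so these did not overlap.

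**Figure D1:**
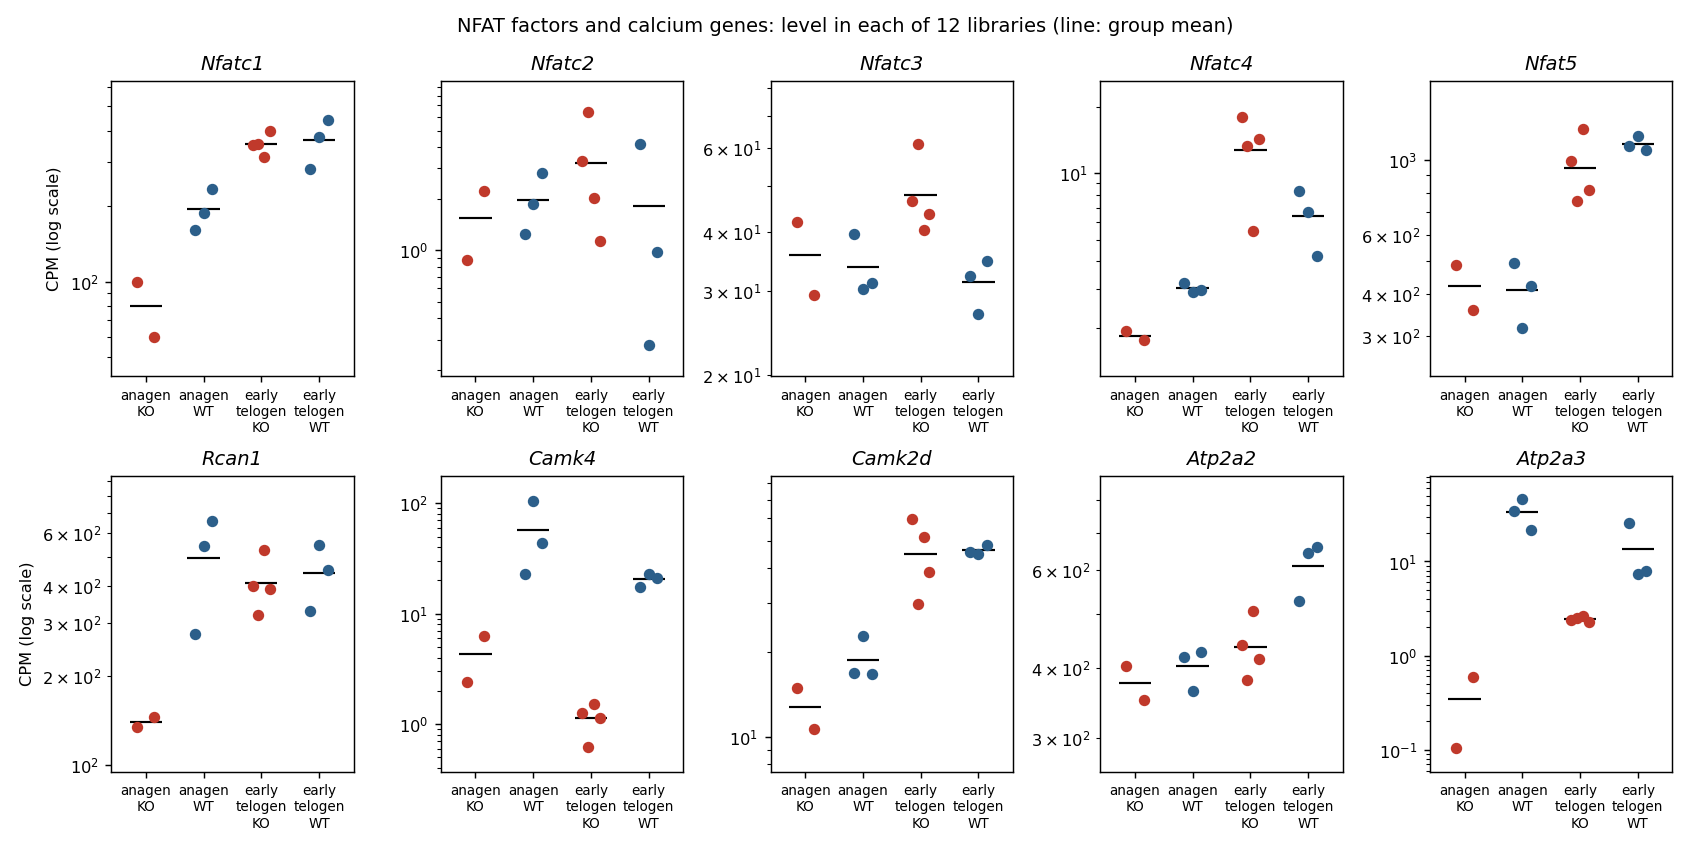
Level of the 10 genes in each of 12 libraries, in CPM on a log axis that differs between panels; points are libraries (red KO, blue WT) and lines are group means. Nfatc1 and Rcan1 were lowest in the 2 anagen KO libraries, and Camk4 and Atp2a3 were lower in KO than in WT in both stages.

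Rcan1 (ENSMUSG00000022951.16, chromosome 16, 92391953 to 92470867, minus strand) binds and restrains calcineurin and is itself a known NFAT target, so its transcript is often used as a readout of NFAT activity. It was at 134.2 and 145.0 CPM in anagen KO, against 276.6, 543.0 and 661.8 CPM in anagen WT. In early telogen it was at 400.1, 318.9, 527.4 and 391.4 CPM in KO, against 328.4, 547.4 and 451.3 CPM in WT. The anagen KO libraries were the lowest of the 12, at 28.3% of the anagen WT mean, and the early telogen groups overlapped. The log2 fold change of KO over WT was -1.92 ± 0.39 in anagen and -0.27 ± 0.27 in early telogen. With the labelled sex in the anagen fit it was -1.06 ± 0.33, since the female WT library was the lowest of its group.

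Camk4 (ENSMUSG00000038128.7, chromosome 18, 32934931 to 33191228, plus strand), a nuclear calcium/calmodulin-dependent kinase that acts on CREB, was lower in KO in both stages. It was at 2.39 and 6.27 CPM in anagen KO, against 23.1, 104.8 and 43.9 CPM in anagen WT. In early telogen it was at 1.27, 0.622, 1.52 and 1.13 CPM in KO, from 3 to 15 counts a library, against 17.6, 23.1 and 21.0 CPM in WT, from 129 to 249 counts. No KO library reached a WT library of its stage. The KO mean was 7.56% of the WT mean in anagen and 5.51% in early telogen. The log2 fold change was -3.83 ± 0.80 in anagen, or -2.50 ± 0.68 with sex in the fit, and -4.34 ± 0.38 in early telogen. The antisense gene whose exons overlap Camk4, 2310026I22Rik, was at 0 CPM in all 12 libraries.

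Camk2d (ENSMUSG00000053819.16, chromosome 3, 126596302 to 126846326, plus strand), the delta subunit of the multimeric kinase CaMKII, moved mainly with stage. It was at 14.9 and 10.6 CPM in anagen KO, against 16.8, 22.8 and 16.7 CPM in anagen WT. Early telogen values were 59.8, 29.8, 51.5 and 38.7 CPM in KO, against 45.3, 44.9 and 48.1 CPM in WT. The anagen KO libraries lay below WT, and in early telogen the KO libraries fell on both sides of WT. The log2 fold change of KO over WT was -0.64 ± 0.27 in anagen and -0.18 ± 0.25 in early telogen.

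Atp2a2 (ENSMUSG00000029467.15, chromosome 5, 122453513 to 122502225, minus strand) encodes SERCA2, the pump that refills the endoplasmic reticulum in keratinocytes and the gene mutated in human Darier disease. It was at 403.6 and 350.1 CPM in anagen KO, against 419.1, 363.8 and 428.0 CPM in anagen WT, and at 439.4, 381.0, 506.4 and 416.2 CPM in early telogen KO, against 527.0, 644.3 and 658.6 CPM in early telogen WT. The anagen groups overlapped. The early telogen KO libraries all lay below WT, at 71.4% of the WT mean, with a log2 fold change of -0.65 ± 0.22 that did not pass the test.

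Atp2a3 (ENSMUSG00000020788.15, chromosome 11, 72961169 to 72993044, plus strand) encodes SERCA3, a pump of lower calcium affinity known from blood and epithelial cells. It was at 0.103 and 0.586 CPM in anagen KO, which is 4 and 17 counts, against 34.5, 45.7 and 21.6 CPM in anagen WT. Early telogen levels were 2.37, 2.49, 2.63 and 2.25 CPM in KO, against 25.4, 7.42 and 7.99 CPM in WT. KO and WT did not overlap in either stage, and the early telogen KO libraries lay close together while WT replicate 1 stood well above the other WT libraries. The KO mean was 1.01% of the WT mean in anagen and 17.9% in early telogen. The log2 fold change was -6.79 ± 0.75 in anagen and -2.62 ± 0.44 in early telogen, or -1.86 ± 0.43 without early telogen WT replicate 1.

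Camk4, Atp2a3 and Nfatc2 are also known from lymphocytes. The summed immune markers overlapped between genotypes in both stages, and their medians were 100.7 CPM in anagen KO, against 62.2 CPM in anagen WT, and 98.3 CPM in early telogen KO, against 27.6 CPM in early telogen WT. Most of that sum was Cd74 in every library, for example 128.1 of 161.8 CPM in anagen KO replicate 2. The T cell genes Cd3e (at most 8.20 CPM), Lck (at most 1.80 CPM) and Lat (at most 1.25 CPM) were low, so the sum does not measure lymphocytes. The part of immune cells in the values of Camk4, Atp2a3 and Nfatc2 was not tested. Markers of epidermal differentiation (5 genes) summed to 574.2 and 1035 CPM in anagen KO, against 1446 to 2160 CPM in anagen WT. Of these, only Sbsn lay below WT by itself, at 343.0 and 427.6 CPM, against 827.3 to 1407 CPM. Ivl lay above WT, at 98.7 and 163.1 CPM, against 17.4 to 98.0 CPM, while Krt1, Krt10 and Lor overlapped. Markers of the companion layer and inner bulge (3 genes) summed to 1142 and 1196 CPM in anagen KO, against 1632 to 2352 CPM in anagen WT. Melanocyte markers (6 genes) summed to 25.5 and 30.3 CPM in anagen KO, against 59.3 to 139.2 CPM in anagen WT. Mitf and Tyr lay below WT by themselves, while Dct, Tyrp1, Mlana and Sox10 overlapped. Mitf alone was 40.9 of the 59.3 CPM in anagen WT replicate 3, so the sum is not a measure of melanocytes. These 3 sums did not overlap between genotypes in anagen, and their part in the anagen values was not tested. In early telogen all 3 overlapped, but KO replicate 2 stood apart. Its epidermal differentiation sum was 5630 CPM, against 1589 to 1994 CPM in other KO libraries and 1522 to 3678 CPM in WT. Its fibroblast sum (6 genes) was 4975 CPM, against 463 to 1500 CPM in other KO libraries and 253 to 1505 CPM in WT. It also held the highest Nfatc2 and Nfatc3 levels of the stage. The part of these sums in the early telogen values was not tested.

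Camk4 and Atp2a3 each have a relative among the 10 whose level differed less between genotypes, Camk2d and Atp2a2. Per length, Atp2a3 was 0.000294 and 0.00193 of Atp2a2 in anagen KO, against 0.0949, 0.145 and 0.0580 in anagen WT. In early telogen that ratio was 0.00597 to 0.00752 in KO (4 libraries), against 0.0556, 0.0133 and 0.0140 in WT. The ratio of Camk4 to Camk2d per length was 1.11 and 4.07 in anagen KO, against 9.47, 31.8 and 18.2 in anagen WT, and 0.144 to 0.203 in early telogen KO, against 2.68, 3.55 and 3.02 in early telogen WT. Neither ratio overlapped between genotypes in either stage. Camk4 and Atp2a3 did not overlap by themselves either, so the ratios add no separate result on genotype. Camk2d has 22493 bases of annotated exon over all its transcripts, so its per-length level may be a low estimate.

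**Figure D2:**
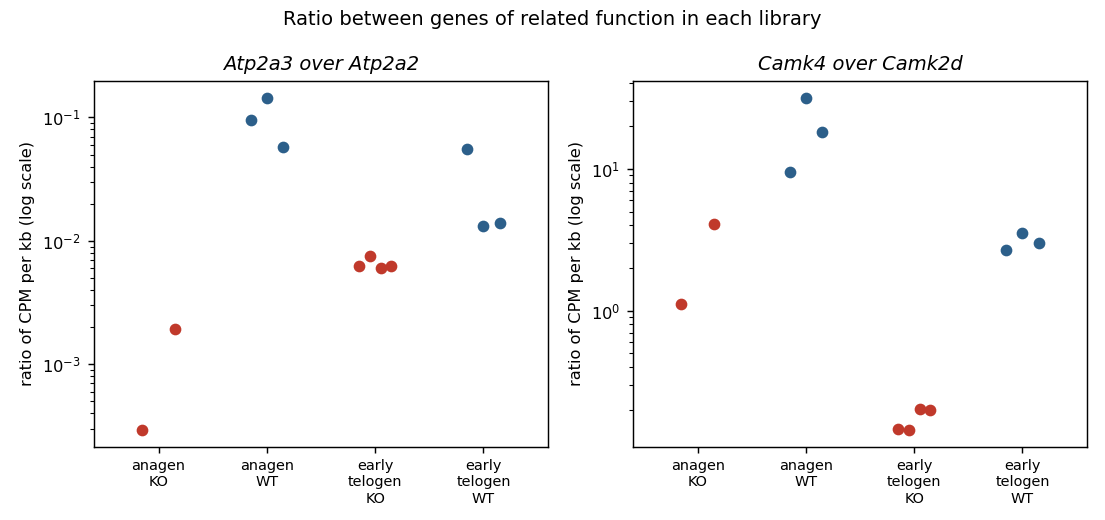
Ratio of Atp2a3 to Atp2a2 (left) and of Camk4 to Camk2d (right) in each of 12 libraries, as CPM per kilobase of exon on a log axis (red KO, blue WT). In early telogen the 4 KO libraries lay between 0.00597 and 0.00752 for the pumps and between 0.144 and 0.203 for the kinases, below all 3 WT libraries.

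Genotype was tested with edgeR's quasi-likelihood test within each table, with 0.05 as the threshold for p-values adjusted over all genes tested by the Benjamini-Hochberg method. In early telogen 2 of the 10 genes passed, Camk4 and Atp2a3, both lower in KO, where 0.956% of 12030 genes passed in either direction and 0.457% were lower. All 10 were among the genes tested. Both had been named in earlier results of this contrast for their fall, so nothing is read from that count. Without KO replicate 1, KO replicate 5 or WT replicate 1 Atp2a3 did not pass, while Camk4 passed with any 1 library left out. Groups of libraries did not overlap for 4 of the 10, Nfatc3 above WT and Camk4, Atp2a2 and Atp2a3 below, where 13.1% of all genes tested did not overlap, 9.75% being higher and 3.37% lower in KO. Nothing is read from that count either. The median log2 fold change of the 10 genes was -0.24, against 0.03 over all genes tested.

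In anagen 0 of 14409 genes passed edgeR (0%), and so 0 of the 10. At an unadjusted p under 0.05 edgeR picked 1456 genes (10.1%), and DESeq2 called 506 at an adjusted p under 0.05. All 10 genes had a negative log2 fold change, with a median of -0.72, against 0.02 over all genes tested, and 51.9% of all genes had a positive one. For 4 of them, Nfatc3 (-0.01 ± 0.23), Nfat5 (-0.04 ± 0.27), Nfatc2 (-0.45 ± 0.58) and Atp2a2 (-0.19 ± 0.21), the estimate was smaller than its error. In 6 of the 10, Nfatc1, Nfatc4, Rcan1, Camk4, Camk2d and Atp2a3, the KO libraries lay below all WT libraries, where 29.7% of all genes did not overlap in either direction and 11.2% lay lower in KO. A single fit of all 12 libraries called Nfatc1, Rcan1, Camk4 and Atp2a3 lower, where it called 1.17% of 13193 genes and 1.11% as lower. Of these 4 members, the fit of the anagen table with sex as a covariate called 0. Sex and genotype could be separated there only through 1 female WT library. With the day in the titles as a block, edgeR called 200 genes in the anagen table, Camk4 (log2 fold change -3.11 ± 0.21) and none of the other 9 members among them. The 10 genes were named with results of these libraries known, so nothing is read from their counts in anagen.

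**Figure D3:**
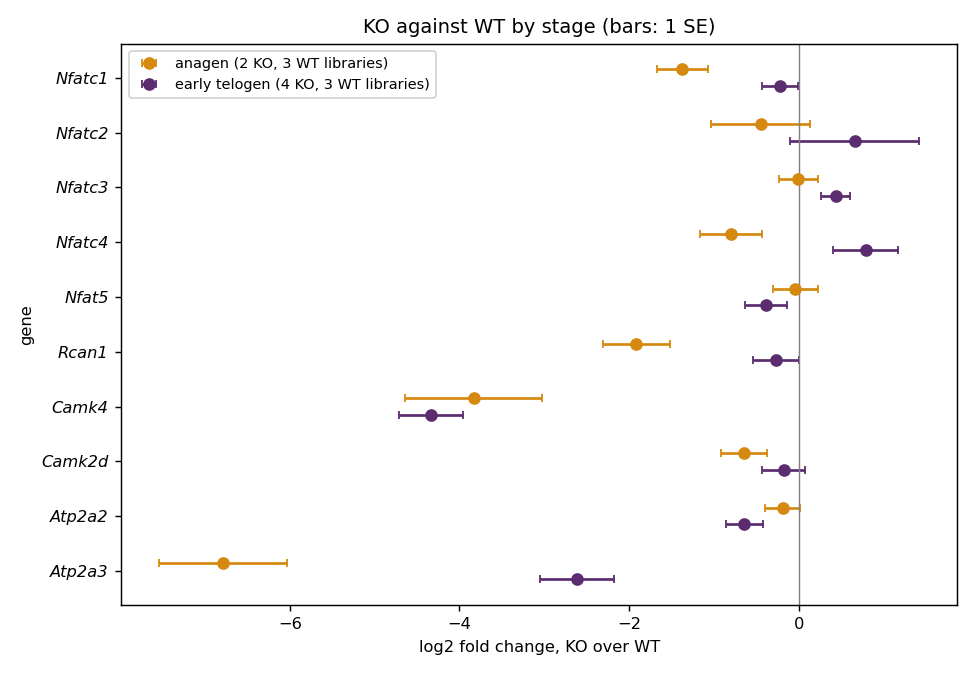
Log2 fold change of KO over WT for each of the 10 genes in anagen (2 KO, 3 WT libraries) and early telogen (4 KO, 3 WT libraries), from edgeR, with bars of 1 SE. Atp2a3 (-6.79 and -2.62) and Camk4 (-3.83 and -4.34) lay far below 0 in both stages, while Nfatc1 (-1.37 and -0.22) and Rcan1 (-1.92 and -0.27) lay further below 0 in anagen than in early telogen.

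Whether the KO effect differed between stages was tested over all 12 libraries, and 0 of the 10 genes passed, where 0.144% of 13193 genes passed. At an unadjusted p under 0.05 edgeR picked 841 genes (6.37%) and DESeq2 called 151 at an adjusted p under 0.05, with Atp2a3 among them. The early telogen effect minus the anagen effect was 4.12 ± 0.84 on the log2 scale for Atp2a3, 1.62 ± 0.50 for Rcan1 and 1.13 ± 0.36 for Nfatc1. It was -0.54 ± 0.81 for Camk4. Passing in early telogen and not in anagen does not therefore show that an effect differed between the stages.

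Between stages, Nfatc1, Nfatc4, Nfat5 and Camk2d were higher in early telogen than in anagen in both genotypes. In KO libraries 6 of the 10 genes rose in early telogen and 0 fell, where 22.2% of 12771 genes passed, 10.2% higher and 12% lower: Nfatc1 by 2.16 ± 0.30, Nfatc4 by 2.75 ± 0.50, Nfat5 by 1.19 ± 0.33, Rcan1 by 1.58 ± 0.32, Camk2d by 1.83 ± 0.36 and Atp2a3 by 2.83 ± 0.85 on the log2 scale. In WT libraries 5 rose and 0 fell, where 29.5% of 12718 genes passed, 13.5% higher and 15.9% lower: Nfatc1 by 1.01 ± 0.22, Nfatc4 by 1.18 ± 0.36, Nfat5 by 1.54 ± 0.20, Camk2d by 1.38 ± 0.19 and Atp2a2 by 0.69 ± 0.18. Rcan1 was level between stages in WT, with a log2 fold change of -0.05 ± 0.34. Camk4 leaned the other way in either genotype without passing, at -1.91 ± 0.64 in KO and -1.39 ± 0.55 in WT. Early telogen and anagen libraries did not overlap for 7 of the 10 genes in KO, 6 higher and Camk4 lower, where 44.9% of all genes tested did not, 21.5% higher and 23.5% lower. In WT they did not overlap for 6 of the 10, 5 higher and Camk4 lower, where 47.9% of all genes did not, 18% higher and 29.9% lower. Nothing is read from these counts between stages, since the 10 genes were named with results of these libraries known.

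The anagen KO group of 2 libraries decided some of these values. Without its replicate 1 the stage difference of Atp2a3 in KO was 2.02 and no longer passed, and without its replicate 2 it was 4.41. Atp2a3 also missed the threshold without early telogen KO replicate 3 or 5, and Nfat5 missed it in KO without either anagen replicate or early telogen replicate 1. In WT, Nfatc4 missed it whenever 1 library other than early telogen replicate 4 was left out, and Atp2a2 without early telogen replicate 3 or 4. Nfatc1 and Camk2d in both genotypes, Rcan1 in KO and Nfat5 in WT passed with any 1 library left out. The KO and WT stage comparisons use different libraries from each other but share them with the genotype comparisons, so the fold changes are not independent of one another.

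**Figure D4:**
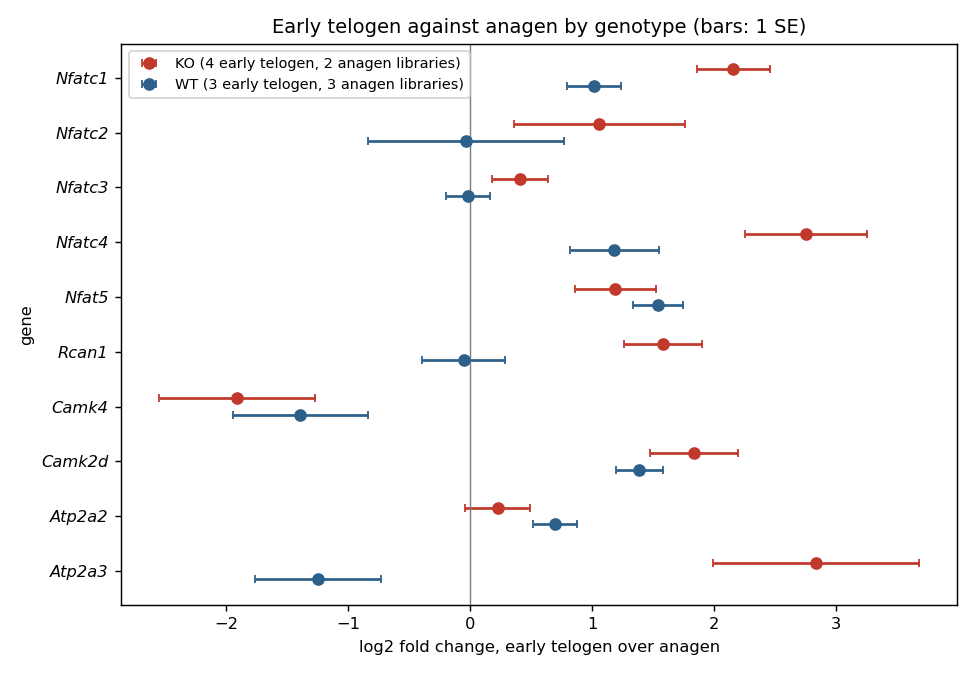
Log2 fold change of early telogen over anagen for each of the 10 genes in KO (4 and 2 libraries) and in WT (3 and 3 libraries), from edgeR, with bars of 1 SE. Nfatc1, Nfatc4, Nfat5 and Camk2d lay above 0 in both genotypes, Camk4 below 0 in both, and Atp2a3 at 2.83 in KO and -1.25 in WT.

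Other genes of the pathway were taken from 11 lists (139 genes, of which 126 are in both tables), chosen from knowledge of the pathway with earlier results of these data known. In early telogen 1 of 89 tested list genes passed for genotype, or 1.12%, where 0.956% of all genes did. It was Cacna1c, which encodes the pore of the L-type channel Cav1.2 and lay lower in KO. The median over the lists was -0.05, against 0.03 over all genes tested. In anagen 0 of 108 passed edgeR, where 0% of all genes did, and 21 had an unadjusted p under 0.05, where 10.1% of all genes did. DESeq2 called 9, all 9 lower in KO, and its share of lower calls over all genes is not given here. In the edgeR fit of all 12 libraries, 147 of the 154 genes called for genotype in anagen were lower in KO, so that direction is not particular to the lists.

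Cacna1c was at 26.6, 24.8, 26.2 and 16.9 CPM in early telogen KO, against 61.9, 61.7 and 42.4 CPM in early telogen WT. It was at 2.29 and 1.03 CPM in anagen KO, against 7.87, 18.6 and 15.05 CPM in anagen WT. KO lay below WT in both stages. The early telogen log2 fold change was -1.39 ± 0.22 (edgeR adjusted p = 0.0134), and leaving out KO replicate 5 (edgeR adjusted p = 0.0533) or WT replicate 3 (edgeR adjusted p = 0.0741) ended the call. The anagen log2 fold change was -3.14 ± 0.54 (edgeR adjusted p = 0.130), and without WT replicate 1 edgeR gave an adjusted p of 0.0284. Over all alternatives the adjusted p of edgeR or DESeq2 ran from 7.09e-06 to 0.117 in early telogen and from 3.34e-07 to 0.593 in anagen.

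Cacna2d2 and Camkk1 had lower means in KO and did not pass in the edgeR fit of each stage's own table, and other settings called them. Cacna2d2, which encodes an accessory subunit of voltage-gated channels, averaged 1.11 ± 0.0632 CPM in anagen KO, against 7.13 ± 1.79 CPM in anagen WT, and its log2 fold change was -2.76 ± 0.39 (edgeR adjusted p = 0.0719) in anagen and -1.62 ± 0.38 (edgeR adjusted p = 0.0742) in early telogen. Camkk1, a kinase that activates CaMKIV, the product of Camk4, averaged 7.73 ± 3.58 CPM in anagen KO, against 31.9 ± 5.67 CPM in anagen WT, which gave -2.13 ± 0.35 on the log2 scale (edgeR adjusted p = 0.121). In early telogen its log2 fold change was -0.61 ± 0.21. In anagen the edgeR fit of all 12 libraries called both lower (adjusted p = 0.0135 for Cacna2d2 and 0.00457 for Camkk1), as did edgeR with no count filter and DESeq2, and the day block called Cacna2d2 (edgeR adjusted p = 0.0240). In early telogen DESeq2, edgeR with no count filter and edgeR without KO replicate 3 called Cacna2d2 lower. Other list genes missed the edgeR threshold in early telogen and were called by DESeq2 there. Among them were Trpv4 (-0.81 ± 0.18, edgeR adjusted p = 0.0547), Dapk1 (-1.23 ± 0.34, edgeR adjusted p = 0.126) and Hdac5 (0.61 ± 0.18, edgeR adjusted p = 0.136). Hdac5 was higher in KO. These and the following genotype values that did not pass were singled out after their values were seen.

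Of 5 tested osmotic genes of NFAT5, 0 passed edgeR for genotype in either stage, where 0.956% of all genes passed in early telogen and 0% in anagen. The taurine transporter Slc6a6 was at -1.03 ± 0.25 on the log2 scale in early telogen (edgeR adjusted p = 0.0849) and -1.09 ± 0.28 in anagen (edgeR adjusted p = 0.264). DESeq2 called Slc6a6 lower in early telogen (adjusted p = 0.00214) and in anagen (adjusted p = 0.0104), as did edgeR with no count filter. Among genes tied to NFATc1, Cdk4 was at 215.4 and 222.6 CPM in anagen KO, against 161.9, 155.4 and 137.3 CPM in anagen WT, which gave 0.44 ± 0.19 on the log2 scale and did not pass (edgeR adjusted p = 0.492). In early telogen, where Nfatc1 was at -0.22 ± 0.21, Cdk4 was at 0.50 ± 0.21 and did not pass either (edgeR adjusted p = 0.340). A link between the levels of Nfatc1 and Cdk4 was not tested. Prlr, the prolactin receptor, was at 30.2 and 34.0 CPM in anagen KO, against 56.9, 101.0 and 80.6 CPM in anagen WT, which gave -1.40 ± 0.28 on the log2 scale (edgeR adjusted p = 0.160). DESeq2 called Prlr lower in anagen (adjusted p = 0.00114) and in early telogen (adjusted p = 0.0450), and in anagen edgeR called it with all 12 libraries (adjusted p = 0.00830), with the day block (adjusted p = 0.0333) and with no count filter. With any 1 library left out edgeR did not call Prlr in anagen. With sex as a covariate it called no list gene there, Prlr and Slc6a6 included. For both genes the female library was the lowest of anagen WT. The anagen groups of Cdk4 and of Prlr did not overlap, where 29.7% of all genes tested did not.

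Across stages, 17 list genes rose and 10 fell in early telogen in KO (29.3% of 92 tested), and 16 rose and 6 fell in WT (24.2% of 91 tested). Of all genes tested, 22.2% passed in KO (10.2% higher and 12% lower) and 29.5% in WT (13.5% higher and 15.9% lower). Those that rose in both genotypes numbered 11, which is 64.7% of the KO set and 68.8% of the WT set: Atp2b4, Cacna1c, Cacna2d2, Cacnb1, Camkk1, Crebbp, Dyrk1a, Itpr2, Itpr3, Mef2a and Stim1. Those that fell in both numbered 5, which is 50% of the KO set and 83.3% of the WT set: Akap5, Akr1b3, Calm3, Cdk4 and Fkbp1a. Over all genes, those that rose in both were 61.6% of the KO set and 46.5% of the WT set, and those that fell in both were 69.5% of the KO set and 52.7% of the WT set. The store sensor Stim1 rose by 1.21 ± 0.25 in KO (edgeR adjusted p = 0.00738) and by 1.23 ± 0.15 in WT (edgeR adjusted p = 0.00119) on the log2 scale. The plasma membrane pump Atp2b4 rose by 1.42 ± 0.34 in KO and by 1.23 ± 0.20 in WT, and the CREB coactivator Crebbp by 1.86 ± 0.28 in KO and by 1.76 ± 0.20 in WT. Cdk4 averaged 79.2 ± 23.0 CPM in early telogen KO, against 219.0 ± 5.08 CPM in anagen KO, and 49.3 ± 8.75 CPM in early telogen WT, against 151.5 ± 12.7 CPM in anagen WT.

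The counts by group are read against the same shares of all genes, and were not tested against them. The transcription regulators acted on by these kinases had 2 risers of 14 tested in KO and 4 of 13 in WT, with 0 falling in either. Voltage-gated channel subunits had 4 risers and 1 faller of 8 in KO and 3 risers and 0 fallers of 8 in WT. Calcineurin subunits, regulators and calmodulin had 2 risers (Ppp3ca and Calm2) and 3 fallers of 12 in KO, and 0 risers and 3 fallers of 12 in WT. Calm2, which encodes calmodulin, averaged 354.0 CPM in anagen KO, against 439.1 CPM in anagen WT, and did not pass for genotype in either stage. For the change of the KO effect with stage, 0 of 96 list genes passed edgeR, with 10 at an unadjusted p under 0.05 and 0 called by DESeq2.

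**Figure D5:**
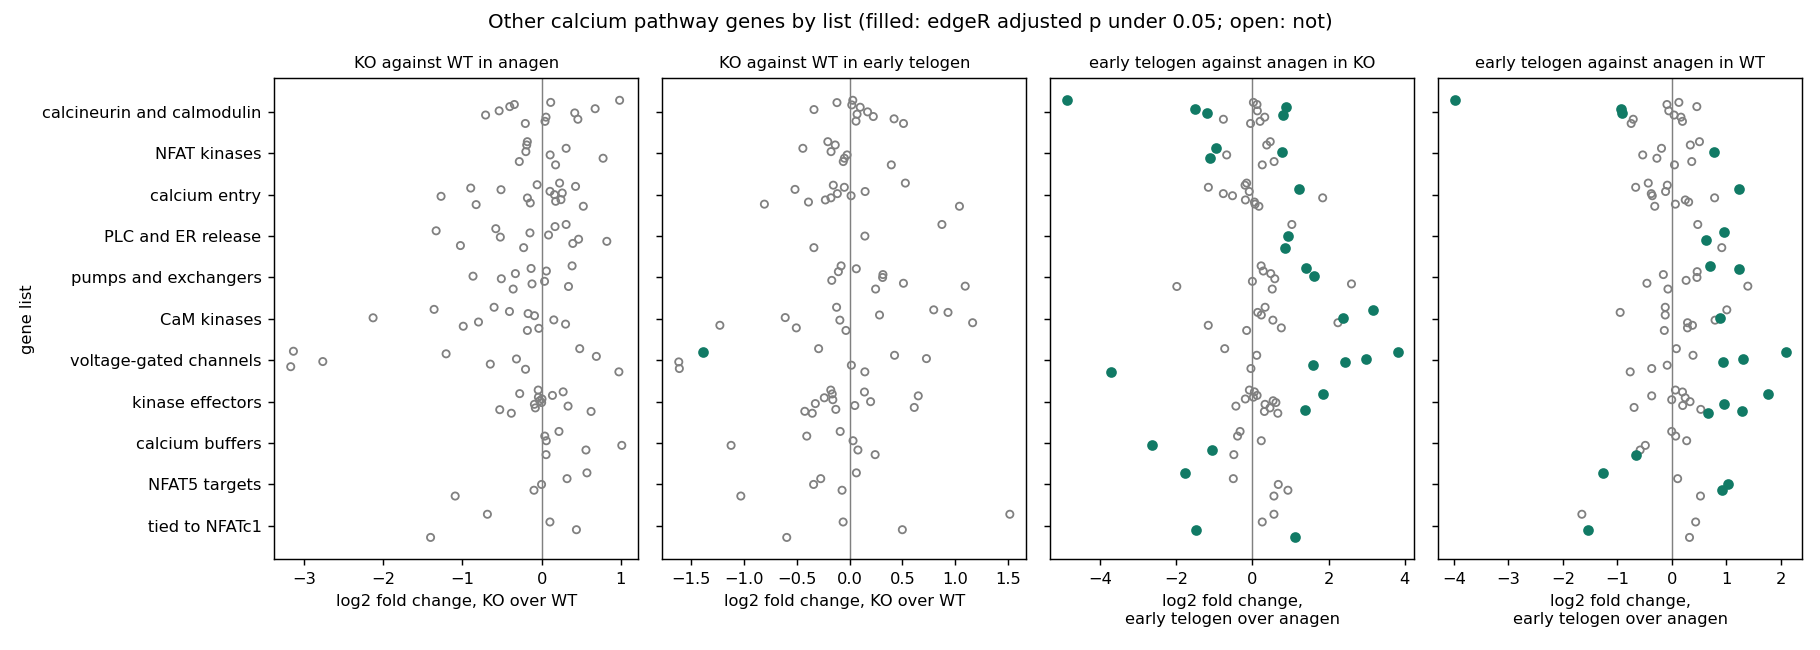
Log2 fold change of each tested gene of the 11 calcium lists in 4 comparisons, 1 row a list; filled points passed edgeR at an adjusted p under 0.05, and the 4 axes differ in range. For genotype the 1 filled point is Cacna1c in early telogen (-1.39); between stages 27 points are filled in KO and 22 in WT.

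Likeness of pattern was measured as the root mean square difference of log2(CPM + 1) values over the 12 libraries, each gene centred on its own mean, among 10088 genes with a mean of at least 5 CPM in 1 group. Nearest to Nfatc1 were Ppp2r3a (0.230), Rora (0.247), Pacsin3 (0.253), Scml2 (0.273) and Peli2 (0.280), where the median over all genes was 0.972. Nearest to Camk4 were Col4a4 (0.894), Gpc6 (0.954), Upb1 (1.003), Krt75 (1.08) and Atp2a3 (1.10), where the median was 2.02. Among the nearest to Atp2a3 were Gfra1 (0.930), Col4a4 (1.05), Serpina3b (1.08) and Pcsk6 (1.08), where the median was 1.82. Ppp2r3a, a regulatory subunit of the phosphatase PP2A, averaged 56.9 CPM in anagen KO, against 127.4 CPM in anagen WT, and 225.9 CPM in early telogen KO, against 288.7 CPM in early telogen WT. Col4a4, a chain of basement membrane collagen near both Camk4 and Atp2a3, averaged 0.653 CPM in anagen KO, against 5.95 CPM in anagen WT, and 0.145 CPM in early telogen KO, against 4.37 CPM in early telogen WT. All libraries and their depths enter each of these distances, and no test was made of them.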

How the data were processed

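The deposited values are unnormalized counts of reads, with a separate table for each stage. Per the submitters' processing notes the authors aligned reads with TopHat2 to mm10 and counted them with HTSeq. Versions, options and the strand setting are not given in the sources used here. Reads placed at more than 1 position entered no gene's count, which lowers values where copies are near-identical. The early telogen table had 3 broken lines, which were left out, and 27 names turned into dates. Per the labels, libraries were made with a directional kit. Groups came from titles and genotype labels, and stage from the title's day and the table that holds the library.

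The members and gene lists were chosen with earlier results of these data known. CPM used each library's total over gene rows. Tests used edgeR 4.0.16 in R 4.3.3 (TMM, filterByExpr with a minimum count of 10 and a minimum total of 15, robust quasi-likelihood F-tests, Benjamini-Hochberg adjustment over all genes tested), with a standard error taken as the log2 fold change over the square root of F, and were tested on simulated data. Alternatives were DESeq2 1.42.0, its size factors in edgeR, no count filter, libraries left out, a fit of all 12 libraries, replicate, day and sex terms, and CPM over TMM library sizes. Named list genes were those that passed, at most 8 a direction by smallest p, plus the 2 of highest mean CPM in a list where described. Further list genes, among them Trpv4, Dapk1, Hdac5 and Prlr, were named for genotype values that did not pass, after those values were seen. Gene positions and exon lengths came from GENCODE on GRCm38, the same assembly as mm10, and promoter windows from RefSeq. No pair of libraries was a copy, with a chi-square over degrees of freedom of 20.0 or more. Depth was lowest in early telogen KO replicate 5, where 3 counts equal 1.13 CPM. A few members lie on a chromosome whose sequence is not printed here. Some genes that the naming rule picked are not reported here.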

Additional observations from a re-analysis of the deposited data

Results flagged for a closer look

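Reads placed at more than 1 position were counted in the tally lines of the anagen table and entered no comparison. They made up 32.8% and 31.1% of the tallied and counted reads in the anagen KO libraries (replicates 1 and 2), against 20.1% to 25.8% in the 3 anagen WT libraries. Both KO values lay above every WT value. The early telogen table held no such tallies. The part of this share in the anagen values of the NFAT and calcium genes was not tested.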

How the results depend on the processing

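In early telogen Camk4 passed in 14 of 14 alternatives, with log2 fold changes of -4.60 to -3.89. Atp2a3 passed in 10 of 14 (-2.89 to -1.86) and lost its call without KO replicate 1, KO replicate 5 or WT replicate 1 and with a replicate block. Both genes were named for their fall in early telogen, so these counts describe the settings and add no support. Titles share only the numbers 1 and 3 there, with correlations of deviations of 0.120 and 0.0579, so libraries were not treated as paired; with the replicate block 10 genes and 0 list genes passed. In anagen, libraries of the same day correlated at 0.478 and 0.398, and a day block called 200 genes and 2 list genes (Cacna2d2 and Prlr), and 1 of the 10 members, Camk4. In no alternative did a member that passed change sign. The cause of the shifts below was not tested.

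For genotype in early telogen (115 genes and 1 list gene), DESeq2 called 423 genes and 7 list genes, no count filter gave 338 and 5, the fit of all 12 libraries gave 39 and 0, leaving out KO replicate 2 and WT replicate 3 together gave 47 and 0, and leaving out 1 library gave 19 to 131 genes and 0 to 4 list genes. For genotype in anagen (0 and 0), DESeq2 called 506 and 9, no filter gave 306 and 7, the fit of all 12 libraries gave 154 and 4, a sex term gave 1 and 0, and leaving out 1 library gave 0 to 95 genes and 0 to 1 list genes, with 95 and 1 without WT replicate 1. Between stages, leaving out 1 library gave 1382 to 3640 genes and 12 to 29 list genes in KO, against 2835 and 27, and 2312 to 3329 genes in WT, against 3746. For the difference of the KO effect (19 genes, 0 list genes), DESeq2 called 151 genes, no filter gave 409 genes and 3 list genes, leaving out both libraries named above gave 0, and leaving out 1 library gave 0 to 55. Nfatc2 at 3 counts in a library is limited by depth.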
